A study of Mus musculus with 11 samples.

Results

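The response to rapamycin was compared between cells that received an siRNA against Crebl2 and cells that received an siRNA against luciferase, the control. The quantity is the interaction: the change with rapamycin under Crebl2 siRNA minus the change with rapamycin under luciferase siRNA, on the log2 scale. It draws on all 11 of the 11 arrays of the series and on 15908 genes, each represented by its brightest probe. The cells were a mouse embryonic fibroblast line labelled p53-/- TSC2-/-, so every group, the controls included, is labelled as lacking both genes. Cells with Crebl2 siRNA were given rapamycin (3 arrays, called Crebl2 rapamycin) or ethanol (3 arrays, Crebl2 ethanol), and cells with luciferase siRNA were given rapamycin (3 arrays, Luc rapamycin) or ethanol (2 arrays, Luc ethanol). Rapamycin was given at 20 nM for 12 h, and ethanol for the same time, after siRNA treatment that the labels put at 3 days. The labels do not say whether the line is 1 clone or whether the replicates are separate cultures, so the p-values reflect the spread between these arrays, which may be technical.

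TSC2 holds back mTORC1, the kinase complex that drives protein, lipid and nucleotide synthesis, so cells without TSC2 keep mTORC1 active and rapamycin turns part of that activity off. Among the genes that mTORC1 activity is known to raise are the targets of the bZIP transcription factor ATF4 (amino acid synthesis, uptake and tRNA charging), those of SREBP (sterol synthesis) and those of HIF1 (glycolysis). Crebl2 is a small bZIP protein related to CREB, and the series title places it in the metabolism of muscle and liver cells.

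The array medians lay between 110.5 and 112.4 intensity units, and between 46.9% and 51.2% of the probes were above background (detection p under 0.05). Of 11 fibroblast markers, 10 were above background on every array and Lum was above background on none. Their summed intensity was 55830 to 57424 on the Crebl2 rapamycin arrays, 43538 to 53561 on the Crebl2 ethanol arrays, 49682 to 51704 on the Luc rapamycin arrays and 39533 to 40959 on the Luc ethanol arrays. The part of this difference in the results was not tested. Some markers of other cell types were also above background. On every array of a group this held for 4 of 8 macrophage markers, for 4 or 5 of 8 endothelial, 3 or 4 of 8 muscle and 1 to 3 of 7 adipocyte markers, depending on the group. The summed intensity of these lists was low, at 914 to 1082 for macrophage, 1297 to 1691 for endothelial, 1033 to 1210 for muscle and 752 to 908 for adipocyte markers. Epithelial markers were brighter: 5 of 7 were above background on every array, with a summed intensity of 3879 to 7659, given by group below. Ptprc, the pan-leukocyte marker, Myod1, Myf5 and Myh3, of muscle, and Adipoq, Fabp4, Plin1 and Cidec, of fat cells, were above background on none of the arrays. Crebl2 itself was read by 1 probe close to background. It lay at 6.80, 6.88 and 6.72 on the Crebl2 rapamycin arrays, 7.08, 6.81 and 6.68 on the Crebl2 ethanol arrays, 6.87, 7.22 and 7.21 on the Luc rapamycin arrays and 7.04 and 7.06 on the Luc ethanol arrays, where the dimmest probes above background lay between 6.74 and 6.78. The groups overlapped, the siRNA difference was -0.30 in rapamycin (adjusted p = 0.0779) and -0.19 in ethanol (adjusted p = 0.447), or -0.041 and -0.11 with the block, and the interaction was -0.11 ± 0.18 (SE, adjusted p = 0.802), so this probe does not show whether the knockdown took place. Tsc2, read by 3 probes that disagreed in the sign of the interaction, had an interaction of -0.11 ± 0.20 (SE, adjusted p = 0.814). Its brightest probe was above background on all 11 arrays, and since the place of the probe relative to the deleted part was not tested, it does not check the label.

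The 3 Crebl2 rapamycin arrays and replicate 3 of the Crebl2 ethanol arrays stood apart from the other 7. The correlation of log2 values was 0.990 to 0.995 among these 4, 0.984 to 0.997 among the 7 and 0.930 to 0.949 between the sets, and the axis that separated them held 73.8% of the variance. Crebl2 ethanol replicate 3 differed from replicates 1 and 2 of its own group by more than 1 on the log2 scale in 789 genes. The labels name no batch for these arrays. Each interaction is therefore given from the fit of the 4 groups alone and again with a block term for these 4 arrays. In the block fit the rapamycin change under Crebl2 siRNA is taken against that 1 ethanol array, with the spread estimated from the other 10 arrays. Without that array, the shift and the Crebl2 rapamycin group cannot be told apart.

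With luciferase siRNA, 1080 genes changed with rapamycin by at least 0.5 on the log2 scale at an adjusted p under 0.05. Of the 530 that were lower, 502 were also lower in rapamycin under Crebl2 siRNA and 333 passed the test there, with medians of -0.48 under Crebl2 siRNA and -0.69 under luciferase siRNA. Of the 550 that were higher, 487 were higher under Crebl2 siRNA and 199 passed, with medians of 0.27 and 0.66. With the block the Crebl2 siRNA medians were -0.32 and 0.40, and 179 of the 530 and 249 of the 550 passed, so the direction with more genes passing under Crebl2 siRNA depends on the treatment of the 4 arrays. Over all genes 5.67% rose and 6.56% fell with rapamycin under Crebl2 siRNA (12.2% in all, or 7.15% with the block, 4.48% higher and 2.67% lower), and 5.25% rose and 4.85% fell under luciferase siRNA. Where a gene is given below with a pair of values, they are its rapamycin minus ethanol differences on the log2 scale, under Crebl2 siRNA and then under luciferase siRNA. The genes were chosen for their size under luciferase siRNA, so the medians of the 2 arms are a description and not a test. Across all 15908 genes the rapamycin changes of the 2 siRNA arms, which share no array, had a Pearson correlation of 0.381 and a Spearman correlation of 0.381 (0.559 and 0.441 with the block), given as a description across genes that are not independent.

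The interaction passed the test in 61 of 15908 genes (0.383%), 27 higher (0.17%) and 34 lower (0.214%), where higher means a rapamycin change that was less negative or more positive under Crebl2 siRNA. At an unadjusted p under 0.05 there were 2299 genes. With the block 329 genes passed (2.07%), 216 higher (1.36%) and 113 lower (0.71%), among them all 61 with the same sign. The offset of Crebl2 ethanol replicate 3 in the 61 genes lay between -0.61 and 0.60, within a range of -1.31 to 4.98 over all genes. The median size of this offset was 0.22 in the 61 genes and 0.20 over all genes. A large offset widens the spread in the fit without the block and works against a call. The narrower range therefore does not show that these genes escape the shift. The number of calls rested on single arrays: it was 1 to 21 when any of the other 10 arrays was left out and 4369 without Crebl2 ethanol replicate 3, while all 61 genes kept their sign in each of these fits.

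**Figure D1:**
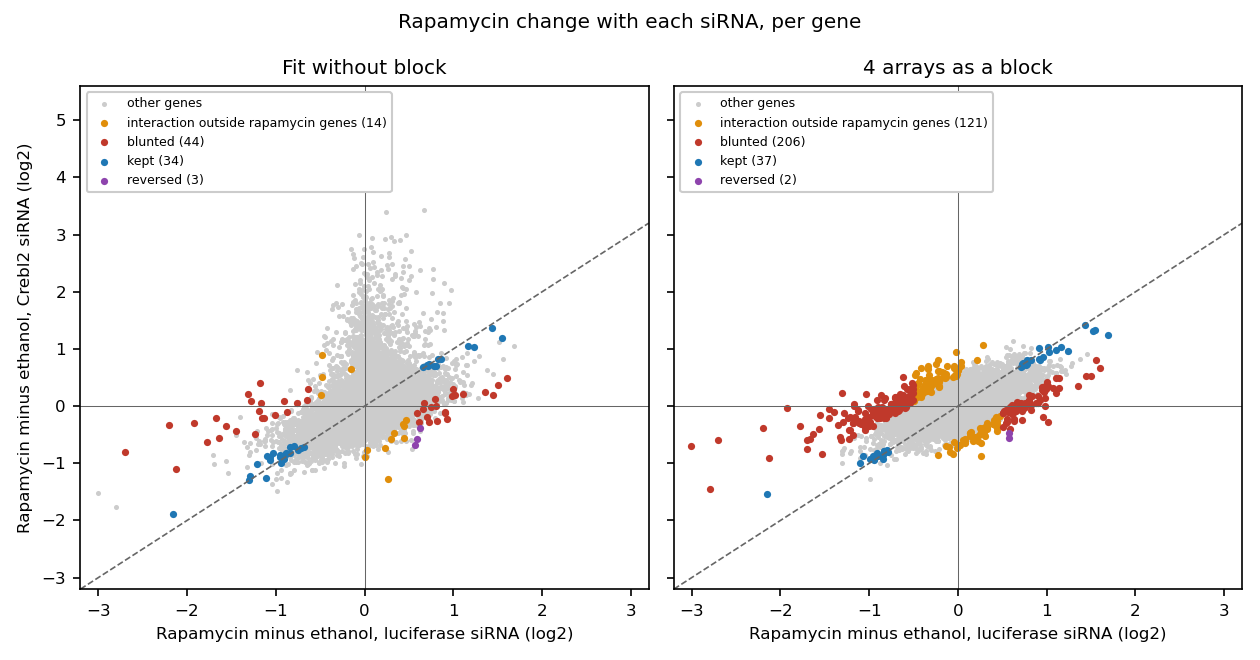
Each point is a gene, with its rapamycin minus ethanol difference under luciferase siRNA on the x axis and under Crebl2 siRNA on the y axis (log2), without a block on the left and with the 4 arrays as a block on the right, and the dashed line marks equal change. Most blunted genes (44 on the left, 206 on the right) lie near the horizontal axis and the kept genes near the dashed line, and the grey points that rise above 2 on the y axis on the left do not do so on the right.

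Among the 1080 rapamycin genes, 44 were blunted, meaning that the interaction passed the test against the direction of the luciferase change and no opposite change passed under Crebl2 siRNA. Of these, 23 were lower and 21 higher with rapamycin under luciferase siRNA. In the median blunted gene 12.2% of the luciferase change remained under Crebl2 siRNA (11.6% with the block). Another 3 were reversed, 0 were enhanced and 34 were kept, meaning that the change under Crebl2 siRNA passed in the same direction and the 95% interval of the interaction stayed within 50% of the luciferase change. The other 999 were undecided. With the block 206 genes were blunted, including all 44, 37 were kept, 13 of them in common, 2 were reversed, 1 in common, and 0 were enhanced. These classes describe the same fit and carry no test of their own.

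**Figure D2:**
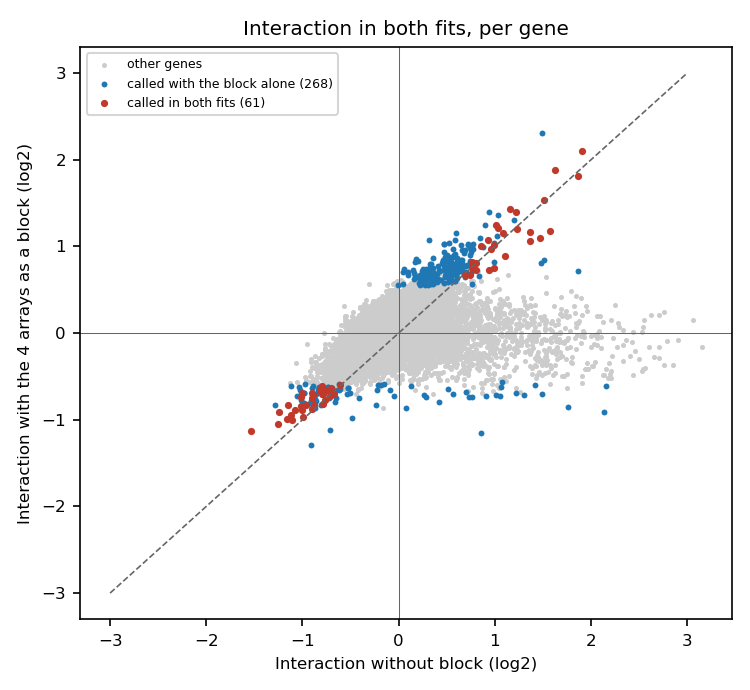
Each point is a gene, with its interaction (log2) without a block on the x axis and with the 4 arrays as a block on the y axis, and the dashed line marks equality. The 61 genes called in both fits lie close to the line, and 268 more are called with the block alone.

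Targets of ATF4 were among the largest blunted decreases, led by Fgf21 in the size of the luciferase change. Fgf21, a secreted hormone of nutrient stress and a known ATF4 target, lay at 6.94, 7.38 and 7.21 on the Crebl2 rapamycin arrays and 8.08, 8.07 and 7.78 on the Crebl2 ethanol arrays, against 7.99, 7.85 and 7.55 on the Luc rapamycin arrays and 10.30 and 10.69 on the Luc ethanol arrays. The Luc ethanol arrays stood above the other 9, and the Crebl2 rapamycin arrays were the lowest. The dimmest probes above background lay between 6.74 and 6.78. From its Crebl2 ethanol level Fgf21 thus had less room to fall than its luciferase change. The part of this limit in the interaction was not tested. The rapamycin change was -0.80 ± 0.16 under Crebl2 siRNA and -2.70 ± 0.17 under luciferase siRNA, with an interaction of 1.90 ± 0.23 (SE, 95% interval 1.39 to 2.42, adjusted p = 0.0142) and 2.10 with the block (adjusted p = 1.6e-06).

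Chac1, an enzyme that breaks down glutathione, was far brighter. It lay at 10.92, 10.85 and 11.05 on the Crebl2 rapamycin arrays and 12.07, 12.18 and 11.85 on the Crebl2 ethanol arrays, against 11.37, 11.41 and 11.37 on the Luc rapamycin arrays and 13.51 and 13.50 on the Luc ethanol arrays. All 4 groups were separate, and rapamycin lowered Chac1 under both siRNAs. The change was -1.10 ± 0.09 under Crebl2 siRNA and -2.12 ± 0.10 under luciferase siRNA, an interaction of 1.03 ± 0.14 (SE, adjusted p = 0.0222) and 1.21 with the block. Asns, asparagine synthetase, had a smaller interaction. It lay at 12.20, 12.33 and 12.33 on the Crebl2 rapamycin arrays and 12.74, 12.74 and 12.85 on the Crebl2 ethanol arrays, against 12.21, 12.40 and 12.18 on the Luc rapamycin arrays and 13.56 and 13.43 on the Luc ethanol arrays, with an interaction of 0.74 (adjusted p = 0.0407) and 0.66 with the block. Its rapamycin arrays overlapped between the siRNAs, and its ethanol arrays did not.

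Ddit3, which encodes the stress factor CHOP, and Trib3, a pseudokinase induced by ATF4, had the largest luciferase changes of the list, -3.0 and -2.80, and their interactions passed with the block alone. Ddit3 lay at 8.41, 8.38 and 8.24 on the Crebl2 rapamycin arrays and 10.23, 10.29 and 9.04 on the Crebl2 ethanol arrays, against 9.39, 9.72 and 9.31 on the Luc rapamycin arrays and 12.32 and 12.63 on the Luc ethanol arrays. Crebl2 ethanol replicate 3 differed from the mean of its group's other arrays by -1.22. The interaction of Ddit3 was 1.49 ± 0.41 (SE, adjusted p = 0.156) without the block and 2.30 ± 0.19 (SE, adjusted p = 6.56e-08) with it. That of Trib3 was 1.04 ± 0.19 (SE, adjusted p = 0.052) and 1.36 ± 0.15 (SE, adjusted p = 1.13e-05).

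Of 32 tested genes on the list of ATF4 targets and of genes for amino acid supply, 20 fell with rapamycin under Crebl2 siRNA (6.56% of all genes fell) and 24 fell under luciferase siRNA (4.85%), with none called higher in either arm. With the block 13 fell under Crebl2 siRNA (2.67% of all genes). The interaction was positive in 29 of 32, against 7003 of 15908 genes, and passed in 3 (Fgf21, Chac1 and Asns), or in 13 with the block, where 30 of 32 were positive, against 8422 of 15908 genes. Median rapamycin changes were -0.48 under Crebl2 siRNA and -0.87 under luciferase siRNA, against -0.02 and 0.02 over all genes. The interaction subtracts the luciferase change, which fell in 24 of the 32, so all genes are not a like comparison. The list's median interaction was 0.44 (0.54 with the block). In the 530 rapamycin genes that were lower under luciferase siRNA it was 0.26 (0.41 with the block), and 23 passed (129 with the block). The 10 genes called with the block alone were Ddit3, Trib3, Atf3, Mthfd2, Slc7a11, Slc7a3, Slc1a4, Cebpg, Vldlr and Gpt2, which include an enzyme of mitochondrial folate metabolism (Mthfd2) and transporters of cystine (Slc7a11) and cationic amino acids (Slc7a3). Atf4 itself had differences of -0.11 and -0.64, and its interaction of 0.53 did not pass (adjusted p = 0.36). With the block it fell under both siRNAs, by 0.60 and 0.64, and the interaction of 0.03 did not pass.

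On the same list 2 genes, Ddit4 and Shmt2, were kept. Ddit4 (REDD1), an inhibitor of mTORC1, lay at 7.93, 8.34 and 8.55 on the Crebl2 rapamycin arrays and 10.35, 10.35 and 9.80 on the Crebl2 ethanol arrays, against 9.46, 9.40 and 9.48 on the Luc rapamycin arrays and 11.59 and 11.60 on the Luc ethanol arrays. The rapamycin and ethanol arrays did not overlap under either siRNA, and the Crebl2 siRNA arrays were lower in both treatments. The change was -1.89 ± 0.17 under Crebl2 siRNA and -2.15 ± 0.19 under luciferase siRNA, and the interaction of 0.26 had a 95% interval of -0.30 to 0.82. Shmt2, the mitochondrial serine hydroxymethyltransferase, had differences of -1.30 and -1.31, with an interaction of 0.01 (95% interval -0.44 to 0.46). With the block Ddit4 was still classed as kept, at -1.53 under Crebl2 siRNA. Its interaction there was 0.62 ± 0.20 (SE) and did not pass. Shmt2 became undecided with the block, at an interaction of 0.31.

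The upstream sequences of 4 blunted genes and of the kept gene Ddit4 are shown. Chac1, Asns and Fgf21 carry the letters that ATF4 is known to bind. Ciart carries only another motif given below, and Ddit4 carries neither. The 250 bases before the RefSeq start are written 5′ to 3′ on the strand of the gene, on build GRCm38.p6, with motif matches in capitals, and the genes were picked after their values were seen. Chac1 lies on the plus strand at chr2:119350992-119351241, and on the minus strand lie Asns at chr6:7693210-7693459, Fgf21 at chr7:45615491-45615740, Ciart at chr3:95882229-95882478 and Ddit4 at chr10:59951771-59952020.
Chac1: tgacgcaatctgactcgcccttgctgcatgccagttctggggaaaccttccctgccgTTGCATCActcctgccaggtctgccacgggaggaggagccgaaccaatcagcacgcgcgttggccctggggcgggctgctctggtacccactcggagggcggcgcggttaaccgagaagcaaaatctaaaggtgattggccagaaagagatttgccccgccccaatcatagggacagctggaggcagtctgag
Asns: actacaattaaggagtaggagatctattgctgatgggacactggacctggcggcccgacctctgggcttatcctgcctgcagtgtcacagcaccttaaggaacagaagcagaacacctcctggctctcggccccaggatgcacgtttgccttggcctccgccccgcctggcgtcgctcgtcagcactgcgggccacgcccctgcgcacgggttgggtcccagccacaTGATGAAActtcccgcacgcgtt
Fgf21: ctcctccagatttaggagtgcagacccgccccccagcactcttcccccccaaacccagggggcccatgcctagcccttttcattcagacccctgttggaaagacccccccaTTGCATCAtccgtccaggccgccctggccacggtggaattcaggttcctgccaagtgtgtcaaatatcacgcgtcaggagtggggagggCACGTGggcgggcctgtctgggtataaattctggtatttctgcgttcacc
Ciart: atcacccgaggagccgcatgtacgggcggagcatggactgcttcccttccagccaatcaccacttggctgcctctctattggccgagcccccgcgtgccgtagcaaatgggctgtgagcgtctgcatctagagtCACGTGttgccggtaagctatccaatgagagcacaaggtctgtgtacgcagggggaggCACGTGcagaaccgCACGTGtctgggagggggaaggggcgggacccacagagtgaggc
Ddit4: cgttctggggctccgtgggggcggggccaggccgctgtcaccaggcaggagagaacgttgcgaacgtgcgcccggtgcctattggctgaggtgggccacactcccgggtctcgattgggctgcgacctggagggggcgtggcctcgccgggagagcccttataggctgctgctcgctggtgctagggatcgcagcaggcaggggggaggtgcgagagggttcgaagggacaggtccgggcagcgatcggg

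The motifs were searched on both strands: TGATGNAA, the composite element of ATF4 and C/EBP proteins, TGACGTCA, the palindromic cAMP response element of CREB-type factors, and CACGTG, the E-box of clock and other factors. Chac1 held TGATGNAA at -193, Asns at -23 and Fgf21 at -139 from the start. Fgf21 also held CACGTG at -50, Ciart held CACGTG at -116, -58 and -44, and Ddit4 held none of them in this window. Of the 23 blunted decreases, 20 had a promoter in the table and 4 of them held TGATGNAA (Asns, Chac1, Chchd10 and Fgf21), against 2.91% of 11105 promoters of tested genes. TGACGTCA was in 0 of 20, against 2.71% of all, and CACGTG in 3 of 20, against 9.28%. With the block, 107 of 140 blunted decreases had a promoter, and 9 of these held TGATGNAA (8.41%), 3 TGACGTCA (2.80%) and 14 CACGTG (13.1%). Ddit3 and Trib3, with larger luciferase changes than Fgf21, held no exact match of the 3 motifs in the 250 bases searched. The blunted genes Stbd1 and Gadd45a held none either, nor did the kept genes Shmt2, Frat2 and Bckdha. Sequence further upstream was not searched. Among kept decreases 17 had a promoter, with 0 holding TGATGNAA, 2 TGACGTCA and 3 CACGTG. For the blunted increases 14 had a promoter, with 1 holding TGATGNAA, 0 TGACGTCA and 1 CACGTG. Of the kept increases 9 had a promoter, with 0 holding any of the 3 motifs. A match is a run of letters and not a measured binding site.

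Among the 61 called genes, Ciart, a repressor of the circadian clock, had the largest interaction outside the ATF4 list without the block, while some genes with larger values did not pass. Ciart lay at 7.4, 7.42 and 7.16 on the Crebl2 rapamycin arrays and 7.50, 7.76 and 7.71 on the Crebl2 ethanol arrays, against 7.04, 7.04 and 6.91 on the Luc rapamycin arrays and 9.15 and 9.24 on the Luc ethanol arrays. The 2 Luc ethanol arrays were high and the other 9 were low, near the dimmest probes above background (6.74 to 6.78). As in Fgf21, the room to fall from the Crebl2 ethanol level was less than the luciferase change. The change was -0.34 ± 0.10 under Crebl2 siRNA (adjusted p = 0.0493, or 0.0758 with the block) and -2.20 ± 0.11 under luciferase siRNA, an interaction of 1.86 ± 0.15 (SE, adjusted p = 0.00129) and 1.81 with the block. It was the 1 named interaction that passed in all 21 alternative fits, with values of 1.31 to 2.88. Of 13 circadian clock genes tested, Ciart alone passed for the interaction, in both fits, where 0.383% of all genes passed (2.07% with the block). Clock had differences of -0.28 and -0.52, with an interaction of 0.24 (adjusted p = 0.50).

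Gadd45a, a stress-induced growth arrest gene, lay at 9.32, 9.66 and 9.60 on the Crebl2 rapamycin arrays and 9.90, 10.01 and 9.69 on the Crebl2 ethanol arrays, against 10.26, 10.45 and 10.30 on the Luc rapamycin arrays and 11.95 and 11.83 on the Luc ethanol arrays. Crebl2 siRNA arrays were lower than luciferase siRNA arrays in both treatments. Its interaction was 1.22 ± 0.17 (SE, adjusted p = 0.0226) and 1.39 with the block. Of 14 FoxO target genes, the interaction passed in Gadd45a and Bcl6, or in 3 with the block (with Txnip). Over all genes 0.383% passed, or 2.07% with the block. Cdkn1a, the CDK inhibitor p21, had differences of -0.55 and -1.63, in a line that lacks its best known activator p53. Its interaction was 1.08 ± 0.16 (SE, adjusted p = 0.0271). Its mean was 7.58 on the Crebl2 ethanol arrays and 7.03 on the Crebl2 rapamycin arrays. The dimmest probes above background lay at 6.74 to 6.78, so its room to fall was limited as well.

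Vegfa, the vascular growth factor and a HIF1 target, fell with rapamycin under luciferase siRNA alone by the test. It lay at 10.42, 10.39 and 10.45 on the Crebl2 rapamycin arrays and 10.37, 10.42 and 10.72 on the Crebl2 ethanol arrays, against 10.62, 10.29 and 10.23 on the Luc rapamycin arrays and 11.62 and 11.51 on the Luc ethanol arrays. The change of -0.08 under Crebl2 siRNA did not pass, against -1.19 ± 0.13 under luciferase siRNA, and the interaction was 1.11 ± 0.18 (SE, adjusted p = 0.0334) and 0.89 with the block. Of 13 hypoxia response genes, 3 fell and 2 rose under Crebl2 siRNA (1 and 1 with the block) and 5 fell under luciferase siRNA. The interaction passed in Vegfa and Ndrg1, where 0.383% of all genes passed. With the block it passed in 5 (with P4ha2, Hif1a and Hmox1), where 2.07% of all genes passed. At an unadjusted p under 0.05 there were 4 of 13, or 5 with the block. Over all 15908 genes there were 2299, or 2189 with the block. Hmox1, heme oxygenase 1, had differences of -0.61 and -1.12. Stbd1, a protein that tethers glycogen to membranes, lay at 8.07, 8.01 and 7.99 on the Crebl2 rapamycin arrays and 8.49, 8.42 and 8.06 on the Crebl2 ethanol arrays, against 8.01, 8.04 and 8.0 on the Luc rapamycin arrays and 9.80 and 10.08 on the Luc ethanol arrays. Its interaction was 1.62 ± 0.17 (SE, adjusted p = 0.0106) and 1.88 with the block. Its mean on the Crebl2 ethanol arrays was 8.32, and the dimmest probes above background lay at 6.74 to 6.78. Its room to fall was thus less than its luciferase change of -1.92.

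The other named blunted decreases were Gch1, the entry enzyme of tetrahydrobiopterin synthesis, Steap1, of the metalloreductase family, Angptl6, a secreted angiopoietin-like protein, and Slc45a3. Their interactions were 1.52, 1.47, 1.15 and 1.02, and each passed in both fits. The 23 blunted decreases also held the transcription factor Klf4 (interaction 1.37), the chemokine Ccl7 (1.23) and Nfe2l1 (0.76), a regulator of proteasome genes, which are named here after their values were seen. Slc45a3 and Klf4 had means of 7.59 and 7.56 on the Crebl2 ethanol arrays, where the dimmest probes above background lay at 6.74 to 6.78. Their room to fall was less than their luciferase changes of -1.45 and -1.28. The part of this limit in their interactions was not tested.

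**Figure D3:**
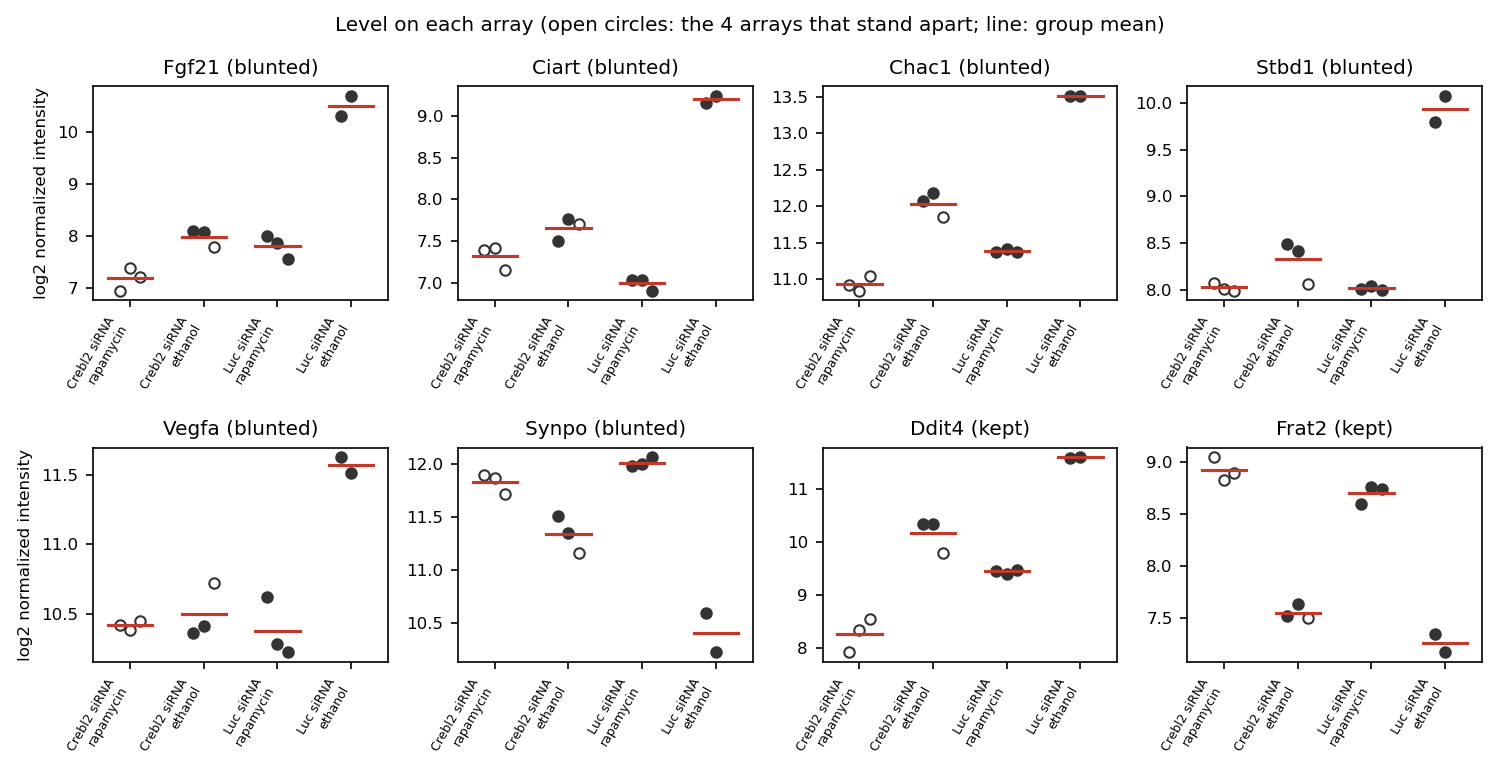
Each panel shows 1 gene's log2 normalized intensity on every array (circles) and the group means (lines) in the 4 groups, with open circles for the 4 arrays that stood apart. In Fgf21, Ciart, Stbd1 and Vegfa the Luc ethanol arrays lie above the other 9 arrays, whereas in Ddit4 and Frat2 rapamycin and ethanol arrays are separate under both siRNAs.

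In 21 of the 23 blunted decreases the difference between the siRNAs was larger in ethanol than in rapamycin. In ethanol all 23 genes were lower with Crebl2 siRNA than with luciferase siRNA, by a median of -1.17 (range -2.52 to -0.20), and 21 passed the test. Of all genes 7.39% passed there, 5.93% lower and 1.46% higher. In rapamycin 9 were lower and 14 higher, with a median difference of 0.04 (range -0.81 to 0.86), and 4 passed downward and 6 upward, where 32.9% of all genes passed. With the block the medians were -1.18 in ethanol, where 22 passed and 13.1% of all genes did (8.01% lower), and 0.01 in rapamycin, where 0 passed and 2.79% of all genes did. Both Luc ethanol arrays lay above the other 9 arrays in 22 of the 23 genes, against 9.4% of all genes tested and 13 of the 22 kept decreases. The ethanol arrays enter the interaction that chose these genes, so these counts are a description.

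**Figure D4:**
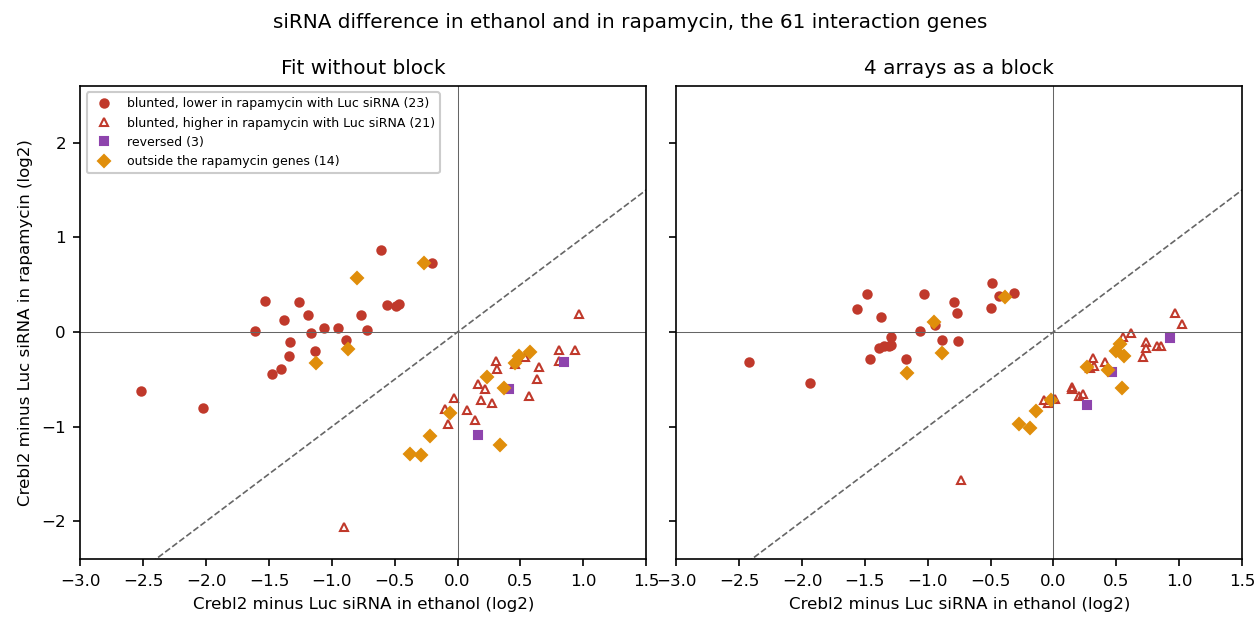
Each point is 1 of the 61 interaction genes, with the Crebl2 minus luciferase siRNA difference in ethanol on the x axis and in rapamycin on the y axis (log2), without a block on the left and with it on the right, and the dashed line marks equal differences. The blunted decreases lie left of 0 in ethanol and spread around 0 in rapamycin, and the blunted increases lie mostly to the right and below.

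The blunted increases were less uniform. In ethanol 17 of the 21 were higher with Crebl2 siRNA, with a median difference of 0.31, and 10 passed upward and 1 downward. In rapamycin 20 of the 21 were lower with Crebl2 siRNA, with a median of -0.55, and 17 passed downward, where 20.9% of all genes did. With the block the medians were 0.32 in ethanol and -0.32 in rapamycin, with 12 passing upward in ethanol (5.05% of all genes) and 8 downward in rapamycin (1.67%, with 1.12% upward). The difference was larger in ethanol in 9 of the 21 genes, or in 11 with the block.

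Synpo, the actin-associated protein synaptopodin, had the largest luciferase change among the blunted increases. It lay at 11.90, 11.87 and 11.72 on the Crebl2 rapamycin arrays and 11.51, 11.35 and 11.16 on the Crebl2 ethanol arrays, against 11.98, 12.00 and 12.06 on the Luc rapamycin arrays and 10.59 and 10.23 on the Luc ethanol arrays. Rapamycin arrays were above ethanol arrays under both siRNAs, by 0.48 ± 0.11 under Crebl2 siRNA and 1.60 ± 0.13 under luciferase siRNA. The interaction was -1.12 ± 0.17 (SE, adjusted p = 0.0275) and -0.94 with the block. Gbp2b, a guanylate-binding protein of the interferon response, lay at 9.92, 9.83 and 9.73 on the Crebl2 rapamycin arrays and 9.54, 9.55 and 9.31 on the Crebl2 ethanol arrays, against 10.19, 10.50 and 10.30 on the Luc rapamycin arrays and 8.87 and 8.78 on the Luc ethanol arrays. Its increase was 0.36 under Crebl2 siRNA and 1.5 under luciferase siRNA, an interaction of -1.13 ± 0.16 (SE, adjusted p = 0.0222). Its relative Gbp2 had an interaction of -0.86 that did not pass (adjusted p = 0.126), and of 15 interferon response genes tested 0 passed in either fit (2 at an unadjusted p under 0.05, or 1 with the block). Irf9 had differences of 0.20 under Crebl2 siRNA and 0.63 under luciferase siRNA.

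Nrep (interaction -1.0), 2810410A03Rik (-1.25) and Sema3c (-1.11), a secreted guidance protein, were blunted as well. The 2 probes of Sema3c disagreed in sign, and the mean of both gave 0.37, so its direction depends on the probe. Cxcl12, a chemokine made by fibroblasts and singled out after its values were seen, lay at 13.49, 13.47 and 13.57 on the Crebl2 rapamycin arrays and 13.51, 13.55 and 13.53 on the Crebl2 ethanol arrays, against 13.37, 13.23 and 13.36 on the Luc rapamycin arrays and 12.70 and 12.44 on the Luc ethanol arrays. It was flat under Crebl2 siRNA at a level above all luciferase siRNA arrays, with an interaction of -0.77 (adjusted p = 0.0334).

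The 3 reversed genes were Tmem119, a transmembrane protein used as a microglia marker, Amigo3, a cell adhesion protein, and 2700063P19Rik. Tmem119 lay at 8.37, 8.36 and 8.36 on the Crebl2 rapamycin arrays and 8.75, 8.86 and 8.63 on the Crebl2 ethanol arrays, against 8.87, 8.97 and 9.06 on the Luc rapamycin arrays and 8.34 and 8.34 on the Luc ethanol arrays. Rapamycin arrays were lower than ethanol arrays under Crebl2 siRNA, by -0.38 ± 0.08 (adjusted p = 0.0157), and higher under luciferase siRNA, by 0.63 ± 0.09 (adjusted p = 0.00171). The interaction was -1.01 ± 0.12 (SE, adjusted p = 0.0142). With the block the change under Crebl2 siRNA was -0.26 and did not pass (adjusted p = 0.211), and the interaction was -0.89 (adjusted p = 0.00128). Amigo3 had differences of -0.57 under Crebl2 siRNA and 0.59 under luciferase siRNA, and also lost the first call with the block (-0.40, adjusted p = 0.0787). Only 2700063P19Rik was reversed in both fits, with changes of -0.68 (-0.47 with the block, adjusted p = 0.0349) and 0.57.

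Of the 34 kept genes, 22 fell and 12 rose with rapamycin. Frat2, a protein that binds GSK3, lay at 9.05, 8.83 and 8.90 on the Crebl2 rapamycin arrays and 7.52, 7.63 and 7.50 on the Crebl2 ethanol arrays, against 8.60, 8.76 and 8.74 on the Luc rapamycin arrays and 7.35 and 7.17 on the Luc ethanol arrays. Rapamycin and ethanol arrays did not overlap under either siRNA. The change was 1.37 ± 0.09 under Crebl2 siRNA and 1.44 ± 0.10 under luciferase siRNA, and the interaction of -0.06 had a 95% interval of -0.36 to 0.23. Bckdha, a subunit of the complex that degrades branched-chain keto acids, rose by 1.19 and 1.54, with an interval of -0.67 to -0.05. Ypel1 rose by 1.03 under Crebl2 siRNA. It was not above background on the Luc ethanol arrays, so its rise under luciferase siRNA was at least 2.30-fold. Abtb1 rose by 1.06 and 1.17, and Fbxo32, a ubiquitin ligase of muscle atrophy and a FoxO target, by 0.71 and 0.71, with 1 of the 2 Luc ethanol arrays above background.

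Pfkl, the liver-type phosphofructokinase of glycolysis, fell by 1.01 under Crebl2 siRNA and 1.22 under luciferase siRNA, with a 95% interval of the interaction of -0.11 to 0.52. Ldha, lactate dehydrogenase A, had differences of -0.87 and -0.92. Cycs, cytochrome c, had differences of -0.88 and -1.10, and Recql4, a DNA helicase, of -1.22 and -1.30. In the median kept gene 94.6% of the luciferase change remained under Crebl2 siRNA (82.0% with the block). Of the 11 genes named as kept, Ddit4, Bckdha, Frat2 and Abtb1 were also kept with the block, and the other 7 were undecided there.

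Of 24 DNA replication genes, 19 fell under Crebl2 siRNA and 11 under luciferase siRNA, where 1 rose, with medians of -0.59 and -0.50, and the interaction passed in 0 genes in either fit by limma (6 at an unadjusted p under 0.05, or 5 with the block). The interaction was positive in 8 of 24, against 7003 of 15908 genes, or in 6 with the block, against 8422. With the block 18 of the 24 fell under Crebl2 siRNA. Over all genes 6.56% fell under Crebl2 siRNA (2.67% with the block) and 4.85% under luciferase siRNA. Mcm10 had differences of -1.19 and -0.84 and Cdc45, a part of the replicative helicase, of -1.18 and -0.83. Of 17 mitosis genes, 7 fell under Crebl2 siRNA (6 with the block) and 1 under luciferase siRNA. There were 0 interaction calls in either fit (4 at an unadjusted p under 0.05 in each). Bub1b, a spindle checkpoint kinase, had differences of -0.35 and -0.37.

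Of 18 cholesterol genes, 10 fell under Crebl2 siRNA and 9 under luciferase siRNA, with medians of -0.54 and -0.43. There were 0 interaction calls (3 at an unadjusted p under 0.05, or 4 with the block). With the block 1 gene was called higher and 1 lower, and the second, Idi1, had an interaction of 1.30 without the block and -0.71 with it, so its sign depends on the treatment of the 4 arrays. Hsd17b7 had differences of -0.82 and -0.84 and Msmo1 of -0.72 and -1.32, where the interaction of 0.61 passed with the block alone (0.78, adjusted p = 0.0253). With the block 6 of the 18 genes fell under Crebl2 siRNA, with a median of -0.35. Of 10 fatty acid synthesis genes 1 fell under each siRNA, with 0 interaction calls in either fit (0 at an unadjusted p under 0.05, or 1 with the block), and Elovl6 had differences of -0.80 and -0.67.

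Aminoacyl-tRNA synthetases, which charge tRNAs and include known ATF4 targets, had 7 of 19 falling under Crebl2 siRNA and 11 under luciferase siRNA, with medians of -0.32 and -0.63. With the block 2 fell and 1 rose under Crebl2 siRNA, with a median of -0.16. The interaction passed in 0 genes, or in 3 with the block (Lars, Sars and Wars), where 2.07% of all genes passed. At an unadjusted p under 0.05 there were 3 of 19, or 10 with the block. Over all 15908 genes there were 2299, or 2189 with the block. Aars had differences of -1.0 and -1.17 and Wars of -0.62 and -0.96. Of 17 glycolysis genes, 8 fell under Crebl2 siRNA and 9 under luciferase siRNA, with medians of -0.43 and -0.44. With the block 5 fell under Crebl2 siRNA, with a median of -0.23. The interaction passed in 0 glycolysis genes, or in 2 with the block, Eno2 and Pfkp. At an unadjusted p under 0.05 there were 3 of 17, or 7 with the block. Eno2 had differences of -0.65 and -1.30, an interaction of 0.65 (adjusted p = 0.254) and 1.01 with the block (adjusted p = 0.00137).

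**Figure D5:**
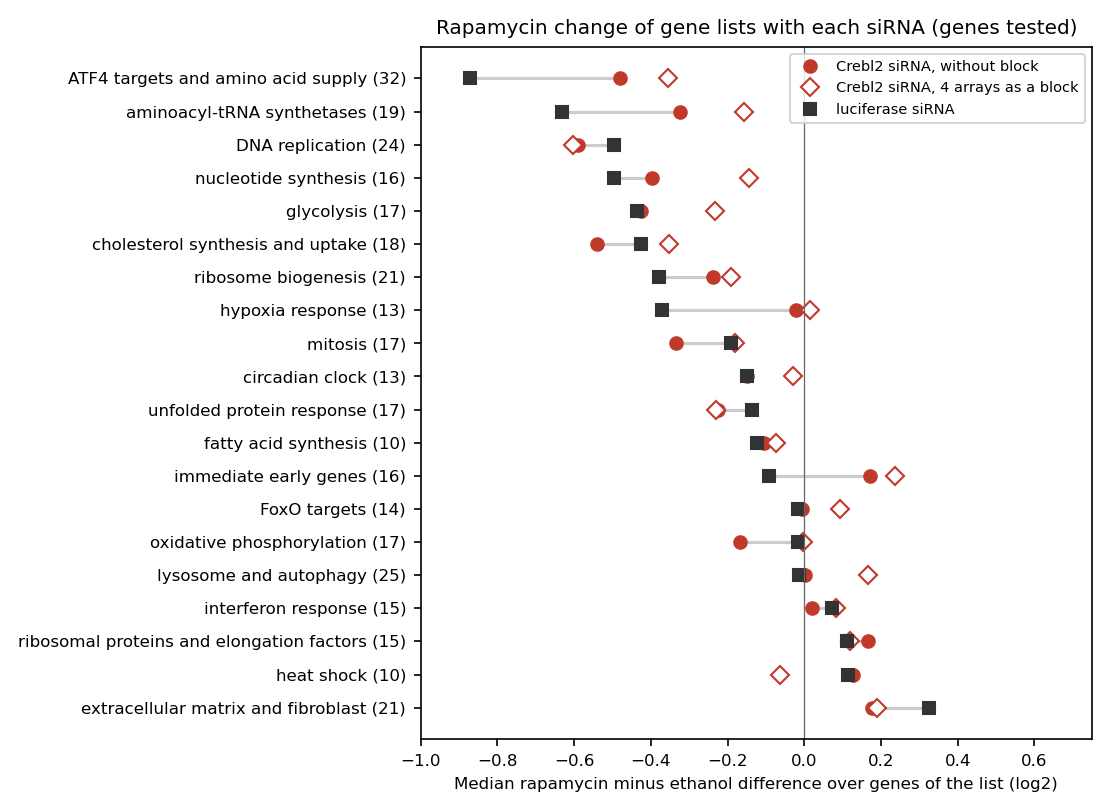
Each row is a gene list, with the number of genes tested in brackets, and the x axis gives the median rapamycin minus ethanol difference (log2) under Crebl2 siRNA without a block (circles) and with it (diamonds), and under luciferase siRNA (squares). The circle and diamond lie nearer 0 than the square in the ATF4 and synthetase rows, and beyond it in the DNA replication row.

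Ribosome and nucleotide genes had 0 interaction calls without the block. In ribosome biogenesis 7 of 21 fell and 1 rose under Crebl2 siRNA (4 and 0 with the block) and 8 fell under luciferase siRNA, with Nop56 at -1.23 and -1.30 and Rrp12 at -0.80 and -1.29. In nucleotide synthesis 5 of 16 fell under Crebl2 siRNA, where 1 rose, and 7 under luciferase siRNA, with Ppat, the entry enzyme of purine synthesis, at -0.44 and -0.86 and Umps at -0.66 and -0.78. At an unadjusted p under 0.05 the first list had 7 of 21 and the second 1 of 16 (9 and 6 with the block). Over all 15908 genes there were 2299 (2189 with the block). Adjusted calls with the block were 3 and 1, where 2.07% of all genes passed. Among the 3 was Dkc1, whose interaction was 1.08 without the block and -0.56 with it. Of 15 ribosomal protein and elongation factor genes, 2 rose under each siRNA, with Rpl22 at 0.60 and 0.78 and Rpl4 at 0.27 and 0.41.

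Lists tied to the secretory pathway and organelles had 0 interaction calls without the block. They were the unfolded protein response (17 genes, Dnajb11 at -0.65 under Crebl2 siRNA and -0.69 under luciferase siRNA, Herpud1 at -0.31 and -0.60), heat shock (10 genes, Hspd1 at 0.15 and -0.60, Bag3 at -0.23 and 0.51), oxidative phosphorylation (17 genes, Cyc1 at -0.46 and -0.74) and lysosome and autophagy (25 genes). At an unadjusted p under 0.05 there were 2, 2, 0 and 6 in these lists, or 1, 3, 4 and 10 with the block. With the block 1 heat shock gene was called lower (Bag3), 1 oxidative phosphorylation gene higher (Cyc1) and 3 lysosome and autophagy genes higher. Over all genes 2.07% passed with the block. Neu1, the lysosomal sialidase, had differences of -0.52 and -1.24, an interaction of 0.72 (adjusted p = 0.128) and 1.03 with the block (adjusted p = 0.000376). Wipi1, an autophagy protein, rose by 0.44 and 0.66.

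Fibroblast and matrix genes rose in 4 of 21 under Crebl2 siRNA (7 with the block) and 5 of 21 under luciferase siRNA. Over all genes 5.67% rose under Crebl2 siRNA (4.48% with the block) and 5.25% under luciferase siRNA. Loxl1, a collagen cross-linking enzyme, was at 0.24 and 0.81 and Tagln at 0.47 and 0.65. With the block 2 of the 21, Col3a1 and S100a4, had interactions called lower. Their values without the block were 1.76 and 0.85, so the sign for these 2 genes depends on the treatment of the 4 arrays. The epithelial markers above background on every array were Cdh1 and the keratins Krt8, Krt14, Krt18 and Krt19. Krt14 rose by 0.54 under Crebl2 siRNA and 1.16 under luciferase siRNA and Krt18 by 0.70 and 0.74. Epcam was above background within the Crebl2 rapamycin group, but on none of the Crebl2 ethanol, Luc rapamycin and Luc ethanol arrays. Summed epithelial marker intensity was 5376 to 5851 on the Crebl2 rapamycin arrays, 3879 to 5623 on the Crebl2 ethanol arrays, 6527 to 7659 on the Luc rapamycin arrays and 5733 to 5784 on the Luc ethanol arrays, and its part in the result was not tested. With the block 1 epithelial marker, Krt19, was called (0.70, against 0.05 without the block). Macrophage, endothelial, muscle and adipocyte markers had 0 interaction calls in either fit (0, 1, 0 and 0 at an unadjusted p under 0.05, or 0, 1, 0 and 1 with the block).

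The interaction passed in 14 genes outside the 1080, 4 higher and 10 lower, all 14 also with the block. The rapamycin change of 9 of them passed under Crebl2 siRNA alone, that of 2 (Bcl6 and Gin1) under luciferase siRNA alone and that of 3 (Ube2q2, Tmem29 and Ttc22) under both, in opposite directions. With the block these counts were 5, 7 and 2. Bcl6, a transcriptional repressor, had differences of 0.19 under Crebl2 siRNA and -0.50 under luciferase siRNA. Edn2, the vasoconstrictor endothelin-2, lay at 7.71, 8.03 and 8.24 on the Crebl2 rapamycin arrays and 9.45, 9.49 and 8.86 on the Crebl2 ethanol arrays, against 9.16, 9.22 and 9.19 on the Luc rapamycin arrays and 8.96 and 8.89 on the Luc ethanol arrays. Its Crebl2 rapamycin arrays were below all others. The change was -1.28 ± 0.17 (adjusted p = 0.00196) under Crebl2 siRNA and 0.26 ± 0.19 (adjusted p = 0.496) under luciferase siRNA, an interaction of -1.54 ± 0.25 (SE, adjusted p = 0.0334) and -1.13 with the block.

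Egr1, an immediate early transcription factor, lay at 11.11, 11.17 and 11.03 on the Crebl2 rapamycin arrays and 10.46, 10.37 and 10.53 on the Crebl2 ethanol arrays, against 11.48, 11.37 and 11.43 on the Luc rapamycin arrays and 11.58 and 11.59 on the Luc ethanol arrays. It was lowest on the Crebl2 ethanol arrays and rose with rapamycin there by 0.65 ± 0.08, against -0.15 ± 0.08 under luciferase siRNA, an interaction of 0.81 ± 0.11 (SE, adjusted p = 0.0226) and 0.73 with the block. Of 16 immediate early genes, 14 had a positive interaction, against 7003 of 15908 genes, or 12 with the block, against 8422. Egr1 alone passed, where 0.383% of all genes did, or 3 with the block (with Junb and Ier3), where 2.07% did. The median interaction was 0.40, against -0.04 over all genes, or 0.36 and 0.02 with the block. Fos had differences of 0.07 and -0.75 and Dusp4, a phosphatase of MAP kinases, of 1.23 and 0.54, and neither interaction passed.

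Ndrg1, a hypoxia and stress gene, lay at 10.87, 10.62 and 10.59 on the Crebl2 rapamycin arrays and 9.64, 9.66 and 10.11 on the Crebl2 ethanol arrays, against 9.96, 10.10 and 10.31 on the Luc rapamycin arrays and 10.43 and 10.77 on the Luc ethanol arrays. It rose under Crebl2 siRNA by 0.89 ± 0.15, against a difference of -0.48 under luciferase siRNA (adjusted p = 0.11), an interaction of 1.37 ± 0.23 (SE, adjusted p = 0.0339) and 1.06 with the block. With the block the rise was 0.58 (adjusted p = 0.0135), and the luciferase difference passed as well (adjusted p = 0.00332). Ube2q2, a ubiquitin-conjugating enzyme, had differences of 0.52 under Crebl2 siRNA and -0.48 under luciferase siRNA, both past the test, and with the block the first was 0.28 and did not pass (adjusted p = 0.188). Mrpl49, of the mitochondrial ribosome, Tmem51, Ctnnal1 and Calr3 had differences of -0.73, -0.90, -0.58 and -0.56 under Crebl2 siRNA and of 0.23, 0.01, 0.30 and 0.44 under luciferase siRNA, where none passed. With the block Ctnnal1 and Calr3 passed under luciferase siRNA, and the Crebl2 siRNA difference of Calr3, -0.25, did not (adjusted p = 0.233). The 3 probes of Calr3 disagreed in sign.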

How the data were processed

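Total RNA was measured on 11 single-colour Illumina bead arrays, labelled with biotin and Cy3-streptavidin per the labels' protocols. The authors deposited normalized intensities with a detection p-value per probe, while for the scanner software, the background step and the normalization the entry is: not given in the sources used here. Dim probes lay near 6.7 on the log2 scale, so changes of dim genes are compressed. The deposited non-normalized intensities carry identifiers that do not belong to their values (correlation -0.00964 to -0.00628 by identifier). Their lines were matched by ranks over arrays (0.999653 to 0.999996 afterwards) and served 1 alternative.

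Of 46237 probes, 35784 had 1 gene symbol, 10453 had none and 0 had several in the platform annotation. The filter required 2 or more arrays with a detection p under 0.05 and left 28936 probes (23695 with a symbol), and the brightest stood for each of 15908 genes. The deposited intensities were taken to log2 and fitted with limma 3.58.1 (R 4.3.3, lmFit and eBayes, 4 groups, no block), with Benjamini-Hochberg adjustment over all genes and a threshold of 0.05. Code was tested on simulated data.

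The text names up to 8 genes per class and per direction by size, among genes above background on every array of a group whose block value had the same sign and at least 0.5 of the size (classes) or passed in both fits (directions), Crebl2 and Tsc2, and up to 2 members per list with the largest luciferase change past 0.05. Other genes were named after their values were seen. The members and lists were chosen with earlier results of these data known. Lists covered ATF4 targets, synthetases, glycolysis, hypoxia, sterols, fatty acids, nucleotides, ribosome biogenesis, ribosomal proteins, replication, mitosis, stress, lysosomes, FoxO targets, the clock, matrix, respiration, interferon, immediate early genes and cell type markers. Promoters were RefSeq's. The siRNA time is 3 days in the sample labels, and the design text gives another time and writes the target's name differently. The alternatives covered scaling, background, filters, probe choice, the prior, both blocks and leaving out each array. The number of arrays limits the precision.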

Additional observations from a re-analysis of the deposited data

Results flagged for a closer look

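The rapamycin change differed between the siRNAs by the interaction test in 27 genes upward and 34 downward. Among the named genes the interaction (log2) was 1.90 for Fgf21, 1.86 for Ciart, 1.62 for Stbd1, 1.52 for Gch1 and 1.47 for Steap1. It was 1.37 for Ndrg1, 1.22 for Gadd45a, 1.15 for Angptl6, 1.11 for Vegfa and 1.08 for Cdkn1a. It was 1.03 for Chac1, 1.02 for Slc45a3, 0.99 for Ube2q2 and 0.81 for Egr1. Downward it was -1.54 for Edn2, -1.25 for 2700063P19Rik, -1.25 for 2810410A03Rik, -1.16 for Amigo3 and -1.13 for Gbp2b. It was -1.12 for Synpo, -1.11 for Sema3c, -1.01 for Tmem119, -1.0 for Calr3 and -1.0 for Nrep. It was -0.96 for Mrpl49, -0.91 for Tmem51 and -0.88 for Ctnnal1. No group had enough arrays for a test of single outlying arrays.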

How the results depend on the processing

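All 61 interaction genes kept their sign in each alternative that measured them, except Sema3c with the mean of probes (60 of 61), and 58 of 58 did with the stricter detection filter. With the 4 arrays as a block there were 329 interaction calls, 206 blunted genes, 3532 luciferase and 1137 Crebl2 siRNA rapamycin calls. The replicate numbers did not pair the arrays (correlations of same-numbered deviations -0.109 to 0.142), and the replicate block gave 5 interaction calls, 5 blunted and 0 reversed genes. The neqc values gave 5 interaction calls (3 higher, 2 lower), 2 blunted and 19 kept genes and 1013 luciferase calls. A trended robust prior gave 22 kept and 5 reversed genes, and reversed genes numbered 6 with log2(value + 16), 7 with quantile normalization, 7 with the stricter filter and 8 with the mean of probes. Leaving out 1 array gave 1 to 4369 interaction calls, 1 to 476 blunted, 14 to 84 kept and 0 to 74 reversed genes, 510 to 3532 luciferase calls and 610 to 6202 Crebl2 siRNA calls. The counts without Crebl2 ethanol replicate 3 were the highest for each of these. Without it the shift and the Crebl2 rapamycin group cannot be told apart. The cause of the other changes was not tested. Some named genes changed sign, most of them with small interactions. Larger interactions that changed sign were those of Sema3c (-1.11) and Gbp2, both with the mean of probes. Idi1, Dkc1, Col3a1 and S100a4, given above, changed sign with the block. With the 4 arrays as a block the values were 0.066 for Crebl2, 0.21 for Tsc2, 0.033 for Elovl6, 0.034 for Rpl22, 0.047 for Cdc45, 0.11 for Fbxo32, 0.14 for Tagln and 0.18 for Krt18. With the mean of probes they were 0.37 for Sema3c, 0.013 for Tsc2, -0.053 for Hsd17b7, 0.15 for Elovl6, 0.51 for Rpl4, 0.29 for Cdc45, -0.082 for Bub1b, 0.025 for Fbxo32 and 0.11 for Gbp2. Hsd17b7 was at -0.010 with the replicate block and -0.000119 with median scaling. Bub1b was at -0.014 with quantile normalization, -0.00377 with median scaling and -0.012 with neqc, and Fbxo32 at 0.00357 with log2(value + 16). Leaving out 1 array gave -0.22 to 0.0023 for Crebl2, -0.053 to 0.29 for Aars, -0.076 to 0.10 for Hsd17b7, -0.0054 to 0.22 for Umps and -0.12 to 0.18 for Nop56. It gave -0.069 to 0.094 for Bub1b, -0.092 to 0.14 for Dnajb11, -0.060 to 0.053 for Fbxo32 and -0.15 to 0.032 for Krt18.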
